A study of Homo sapiens with 4 samples.

Results

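The genes of the NADPH oxidases and of their subunits were followed by RNA-seq in MDA-MB-231, a line of human breast cancer cells. The 9 genes were taken from the 48162 genes of the deposited table by their symbols: NOX1, NOX4, NOX5, CYBB, DUOX1 and DUOX2, which encode catalytic subunits, CYBA, which encodes a membrane partner, and NOXO1 and NOXA1, which encode a cytosolic organizer and a cytosolic activator. NOX5 and NOXA1 drew attention to the family because their level was far higher after treatment, so the difference between the conditions chose them. For all 9 genes that difference is given as a description without a p-value, and nothing is read from the call of a member. Intervals of their fragment ratios cover counting error only and do not serve as a test between the conditions. Cells were exposed for 24 h to MGH-CP1, an inhibitor of TEAD palmitoylation, or to vehicle control, with 2 libraries each, and all 4 libraries come from this single cell line. The labels give the dose of MGH-CP1 as 10 µM, while the methods print the same number with the unit mM. Nothing states whether the 2 libraries of a condition came from separate cultures, so their spread may be technical. The authors deposited FPKM, the fragments on a gene per kilobase of its listed length scaled to the total of fragments on listed genes in the library, which was 25455533 and 25508824 for the vehicle control libraries and lower, 17997221 and 17577930, for the MGH-CP1 libraries.

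An NADPH oxidase passes electrons from NADPH across a membrane to oxygen, which gives superoxide or hydrogen peroxide. The catalytic proteins NOX1, CYBB (also called NOX2) and NOX4 sit in the membrane together with CYBA (p22phox). NOX1 also needs the organizer NOXO1, the activator NOXA1 and the GTPase Rac, whereas CYBB, the oxidase of phagocytes, uses other cytosolic subunits, among them NCF1 and NCF4. NOX5 differs from these enzymes in that it carries calcium-binding EF-hands and works without CYBA or a cytosolic subunit, and DUOX1 and DUOX2, the hydrogen peroxide sources of the thyroid and of airway epithelium, depend on the maturation factors DUOXA1 and DUOXA2. The question was which of these enzymes had their partners expressed in the same cells.

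The start regions of the most different members are printed here because MGH-CP1 acts on TEAD, a DNA-binding factor that recognizes the M-CAT element GGAATG. RefSeq windows (GRCh38.p14), from 250 bases before to 50 bases after each start site, were matched by symbol for all 9 genes, 11 windows in all since NOX4 has 3 start sites. The window of NOX5 lies at chr15:69014445-69014744 and that of NOXA1 at chr9:137423143-137423442, both on the plus strand, and each sequence runs 5′ to 3′ with matches to the TEAD or AP-1 element in capitals.
NOX5: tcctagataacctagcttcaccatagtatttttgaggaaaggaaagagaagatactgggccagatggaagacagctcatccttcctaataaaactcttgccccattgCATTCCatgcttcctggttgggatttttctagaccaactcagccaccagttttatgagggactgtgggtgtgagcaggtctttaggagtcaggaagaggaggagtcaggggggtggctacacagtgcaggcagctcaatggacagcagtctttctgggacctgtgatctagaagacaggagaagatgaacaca
NOXA1: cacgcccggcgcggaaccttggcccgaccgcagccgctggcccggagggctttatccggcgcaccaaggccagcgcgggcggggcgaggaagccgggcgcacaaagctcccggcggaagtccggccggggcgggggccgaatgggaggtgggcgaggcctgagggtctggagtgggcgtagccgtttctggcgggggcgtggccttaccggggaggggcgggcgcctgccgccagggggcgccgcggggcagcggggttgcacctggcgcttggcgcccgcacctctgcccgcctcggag
The capitals in the NOX5 window mark CATTCC, the reverse complement of GGAATG, which begins at position -143 counted from the start site. It was the only TEAD match in the 11 windows when both strands were searched, and 14% of 34796 windows of this length in the whole RefSeq table hold such a match. The AP-1 element TGANTCA, searched on both strands and sharing no base with the TEAD match, was in 0 of the 11 windows and in 7.73% of all windows. The 2 printed windows also differ in base composition: the NOXA1 window is 78% G and C with 40 CG dinucleotides, and the NOX5 window is 48% G and C with 0, against a median of 58.7% G and C over all windows. A match or its absence in this window is a property of the letters and no measurement of TEAD binding. The windows are in GRCh38 and the deposited gene coordinates in hg19. DUOX1, on the same chromosome as NOX5, begins at 45422131 in hg19, and its window starts at 45129744. NOX5 begins at 69222864 in hg19, a smaller distance from its window. If the builds are shifted alike at both genes, the NOX5 window lies inside the deposited NOX5 region, away from its lower end. Which start site these cells used was not tested.

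Only 3 of the 9 genes passed the filter on level, which asked for 1 FPKM or more on average across all libraries. CYBA had 42.6 and 52.9 FPKM in the vehicle control libraries and 76.9 and 79.3 FPKM after MGH-CP1. NOXA1 had 5.45 and 6.19 FPKM in the vehicle control libraries and 25.2 and 25.5 FPKM after MGH-CP1. NOX5 had 2.47 and 2.30 FPKM in the vehicle control libraries and 18.4 and 15.1 FPKM after MGH-CP1. For each of these genes both MGH-CP1 libraries lay above both vehicle control libraries, and the distance between the conditions was larger than that between replicates. Such separation was common: of the 12080 genes that passed the filter, 39.8% had both MGH-CP1 libraries above both vehicle control libraries and 37.4% had both below. The other 6 genes stayed below 1 FPKM in every library.

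**Figure D1:**
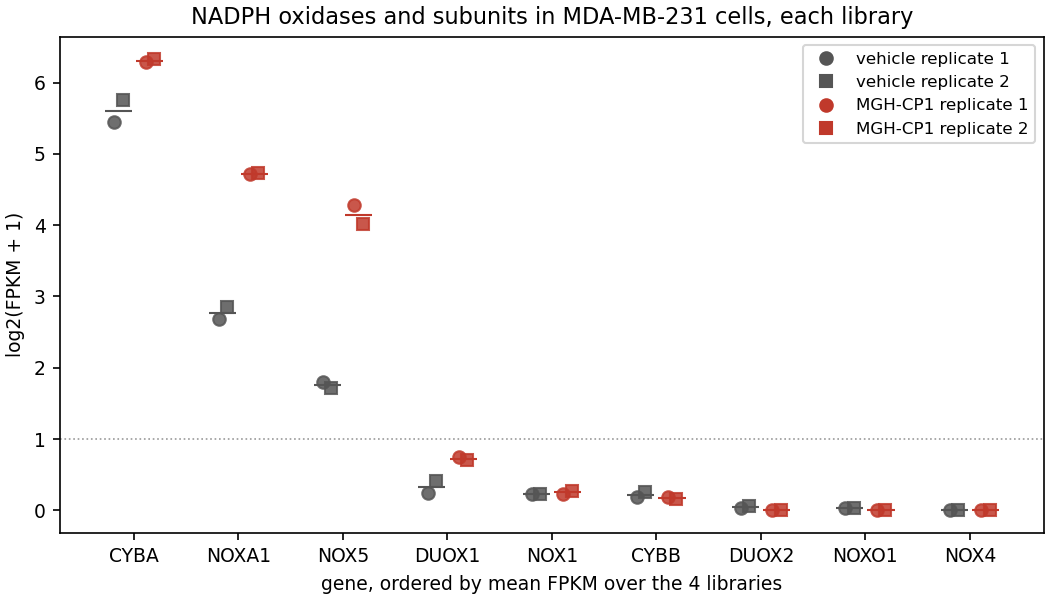
Level of each gene as log2(FPKM + 1) (vertical axis) in the 4 libraries, with genes ordered by mean FPKM (horizontal axis), points for single libraries and short lines for the mean of a condition. CYBA, NOXA1 and NOX5 stand above the dotted line, which marks 1 FPKM, in every library and the other 6 genes lie below it.

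The ratio of the mean FPKM was 7.04 for NOX5, 4.36 for NOXA1 and 1.64 for CYBA. On the log2(FPKM + 1) scale NOX5 was 2.39 higher after MGH-CP1 (standard error 0.10), NOXA1 1.95 higher (standard error 0.07) and CYBA 0.71 higher (standard error 0.09); the added 1 FPKM understates the change of NOX5 most, since its vehicle control level is the lowest of the 3. By the size of this difference NOX5 ranked 2 and NOXA1 ranked 10 among the 12080 genes tested, while CYBA ranked 625. By mean level the order was turned around, with CYBA at rank 971, NOXA1 at rank 4405 and NOX5 at rank 6284. These 3 genes were all called higher in the limma fit across all genes, where 27.1% of genes were called higher and 23.8% lower. The contrast had served to choose the family, so nothing is read from this count. For a single gene, the smallest p of an exact permutation test is 0.333 with 2 libraries a condition.

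**Figure D2:**
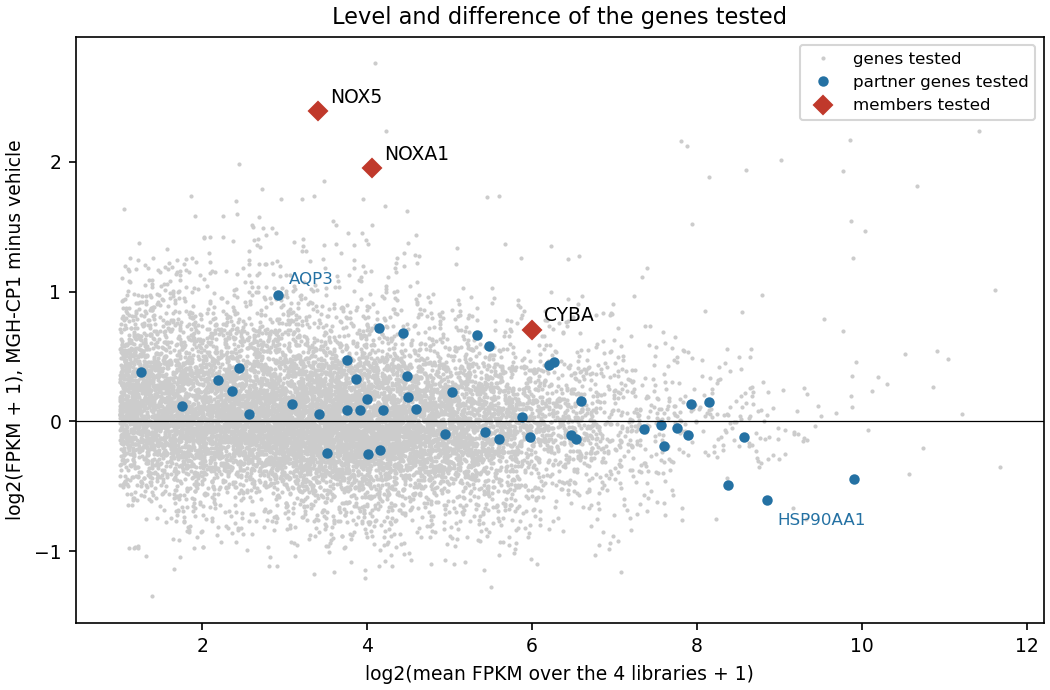
Difference in log2(FPKM + 1), MGH-CP1 minus vehicle (vertical axis), against the level as log2(mean FPKM over the 4 libraries + 1) (horizontal axis) for the 12080 genes tested, with the partner genes tested and the 3 members tested marked. NOX5 at 2.39 and NOXA1 at 1.95, both chosen for their large differences, lie at the upper edge of all genes. CYBA at 0.71 lies among the 47 partner genes and the genes of its level.

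NOX5 (ENSG00000255346) encodes the calcium-dependent oxidase and spans 69222864 to 69355083 on the plus strand of chromosome 15 in hg19, the build of the deposited coordinates. It was supported by 540 and 503 fragments in the vehicle control libraries and by 2849 and 2285 fragments after MGH-CP1. The MGH-CP1 libraries differed from each other more than the vehicle control libraries did, with 16.8 ± 2.33 FPKM (SD, n = 2) against 2.38 ± 0.123 FPKM (SD, n = 2). Its listed length is 8592 bases, the longest of 5 protein-coding transcripts in GENCODE release 29, whose other lengths run from 2277 to 2804 bases. If the fragments came from the shortest of them, the level would be 9.32 and 8.66 FPKM in the vehicle control libraries and 69.5 and 57.1 FPKM after MGH-CP1. The file does not tell which transcript was present, and the ratio between the conditions is the same for any fixed length. The NOX5 region shares 16287 bases with SPESP1 and 74.4% of its length with RP11-809H16.2, both on the same strand and both with 0 fragments in all 4 libraries, and how fragments on shared exons were assigned is not stated. The antisense gene RP11-809H16.4, inside the NOX5 region, held 2 to 7 fragments.

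NOXA1 (ENSG00000188747), the activator that NOX1 needs, spans 140317802 to 140328858 on the plus strand of chromosome 9 (hg19). It was supported by 233 and 265 fragments in the vehicle control libraries and by 762 and 753 fragments after MGH-CP1, and its level was 5.82 ± 0.521 FPKM (SD, n = 2) against 25.4 ± 0.210 FPKM (SD, n = 2). Its listed length of 1678 bases is that of its longest transcript. ENTPD8 overlaps its end by 43 bases on the opposite strand and held 2 to 13 fragments. Per listed length NOXA1 stood above NOX5 in both conditions, by a factor of 2.44 in the vehicle control libraries and 1.51 after MGH-CP1. With the shortest protein-coding transcript as the length of each gene, a choice made after the data were seen, the order was reversed, with factors of 0.743 and 0.460.

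CYBA (ENSG00000051523), the shared membrane partner of NOX1, CYBB and NOX4, spans 88709691 to 88717560 on the minus strand of chromosome 16 (hg19) and overlaps no other listed gene. It held 1536 and 1910 fragments in the vehicle control libraries and 1959 and 1973 after MGH-CP1. The level was 47.8 ± 7.26 FPKM (SD, n = 2) against 78.1 ± 1.70 FPKM (SD, n = 2). Most of the spread was between the vehicle control libraries, and the log2 difference was 0.55 without vehicle replicate 1 and 0.86 without vehicle replicate 2. CYBA had a higher FPKM than every catalytic gene in each library. Its FPKM was 17.3 and 23.1 times that of NOX5 in the vehicle control libraries and 4.18 and 5.24 times after MGH-CP1. These ratios depend on the listed lengths. Per the shortest protein-coding transcript, CYBA would have 493 and 508 FPKM and NOX5 69.5 and 57.1 FPKM after MGH-CP1.

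The catalytic genes that use CYBA were close to the limit of detection. NOX1 (ENSG00000007952) had 11 and 11 fragments in the vehicle control libraries and 8 and 9 after MGH-CP1, which is 0.171 and 0.171 FPKM against 0.176 and 0.202 FPKM. The ratio of its summed fragments, scaled to library totals, was 1.11, with an exact 95% interval from 0.552 to 2.18 that covers counting error only. CYBB (ENSG00000165168) had 15 and 21 fragments in the vehicle control libraries and 11 and 9 after MGH-CP1, a ratio of 0.796 (interval 0.437 to 1.41), and the FPKM of the conditions overlapped. A change of either gene was not detectable at this depth. NOX4 (ENSG00000086991), an oxidase active without cytosolic subunits, had 0 fragments in each library, which allows at most 3 fragments or 0.0269 to 0.0390 FPKM per library.

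The organizer NOXO1 (ENSG00000196408) had 1 fragment in each vehicle control library and 0 in each MGH-CP1 library, under the 3 fragments that a count of 0 allows, so no ratio is given. Of the NOXO1 region, 76.1% overlaps TBL3 on the opposite strand, which held 715 to 1115 fragments. Whether the counting used strand is not stated, so reads of NOXO1 and TBL3 in the shared part cannot be told apart. Per listed length the level of NOXA1 was 31.9 and 36.3 times that of NOX1 in the vehicle control libraries and 144 and 126 times after MGH-CP1. Of the NOX1 enzyme, then, the activator and the membrane partner CYBA were expressed, while the catalytic subunit and the organizer had at most 11 fragments and 1 fragment in a library.

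Of the dual oxidases, DUOX1 (ENSG00000137857) had 27 and 49 fragments in the vehicle control libraries and 70 and 63 after MGH-CP1. This is 0.185 and 0.335 FPKM against 0.678 and 0.625 FPKM, with both MGH-CP1 libraries above both controls. The ratio of summed fragments was 2.51 (exact 95% interval 1.88 to 3.37, counting error only), and the vehicle control libraries differed from each other by more than the MGH-CP1 libraries did. DUOX2 (ENSG00000140279), its neighbor on chromosome 15, had 4 and 8 fragments in the vehicle control libraries and 0 in both MGH-CP1 libraries. With 12 fragments against 0, the ratio of MGH-CP1 to vehicle control had an exact 95% interval from 0 to 0.516 (counting error only). The maturation factor DUOXA1 had 10 to 15 fragments in a library, at 0.146 and 0.175 FPKM in the vehicle control libraries and 0.311 and 0.212 FPKM after MGH-CP1, and DUOXA2 had 0 in every library.

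**Figure D3:**
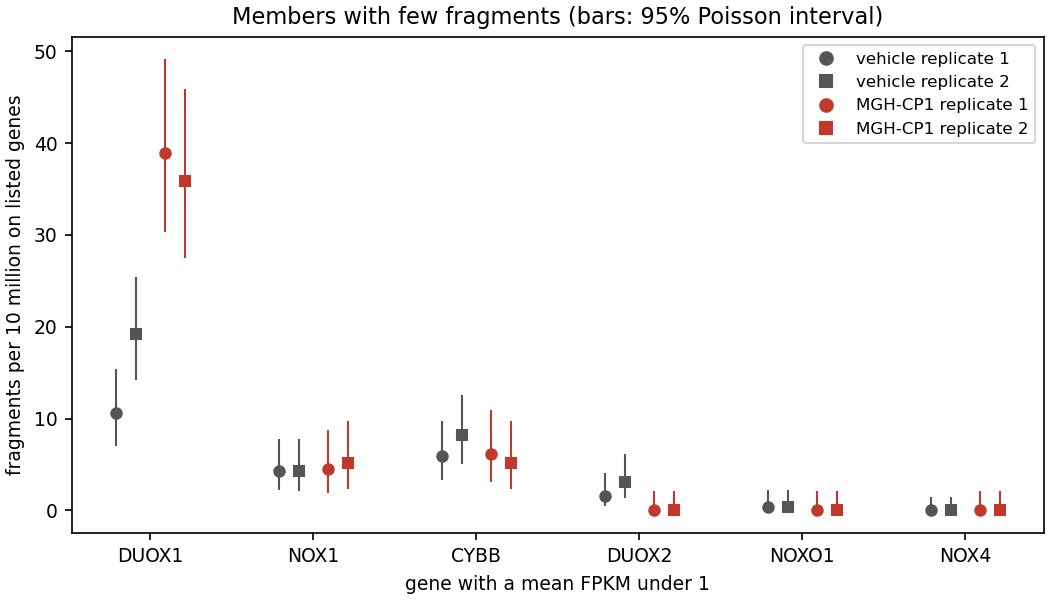
Fragments of a gene per 10000000 fragments on listed genes (vertical axis) for the 6 genes with a mean FPKM under 1 (horizontal axis), with points for single libraries and bars for the exact 95% Poisson interval of each count. DUOX1 is the only gene of the 6 above 10 in every library, with 38.9 and 35.8 after MGH-CP1, and the intervals of NOX1 and CYBB overlap between the conditions.

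Ordered by mean FPKM, the genes ran from CYBA over NOXA1, NOX5, DUOX1, NOX1, CYBB, DUOX2 and NOXO1 to NOX4. Within each condition the libraries of CYBA, NOXA1, NOX5 and DUOX1 were separate from those of the next gene down. In the vehicle control libraries NOX1 overlapped with CYBB and DUOX2 with NOXO1, and after MGH-CP1 DUOX2, NOXO1 and NOX4 all stood at 0. Over the catalytic genes, NOX3 included, the summed level was 3.004 and 3.04 FPKM in the vehicle control libraries and 19.4 and 16.1 FPKM after MGH-CP1. Per listed length NOX5 made up 82.2% and 75.5% of this sum in the vehicle control libraries and 94.9% and 94.1% after MGH-CP1. The other 6 catalytic genes together had 0.535 and 0.743 FPKM in the vehicle control libraries and 0.995 and 0.945 FPKM after MGH-CP1, of which DUOX1 was 0.185 and 0.335 FPKM and then 0.678 and 0.625 FPKM.

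To see whether partners were expressed, 64 further genes that form, activate, feed or follow an NADPH oxidase were listed by role, and 47 of them passed the filter on level. The list was made with earlier results of these data known, so the shares set beside all genes are a description. After MGH-CP1, 17 rose and 7 fell (adjusted p under 0.05 from limma), which is 36.2% and 14.9% of those tested beside 27.1% and 23.8% of all genes. The median log2 difference of the 47 genes was 0.09 and that of all genes tested 0.01. Rescaling changed this split, with 14 higher and 10 lower after quantile normalization and 15 higher and 11 lower after median-ratio scaling. With each library left out in turn, 11 of these 24 calls were lost in at least 1 fit, among them those of TIAM1, VAV2, ARHGDIA, P4HB, PRKACB, HVCN1, CLCN3, SOD1 and SOD2.

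**Figure D4:**
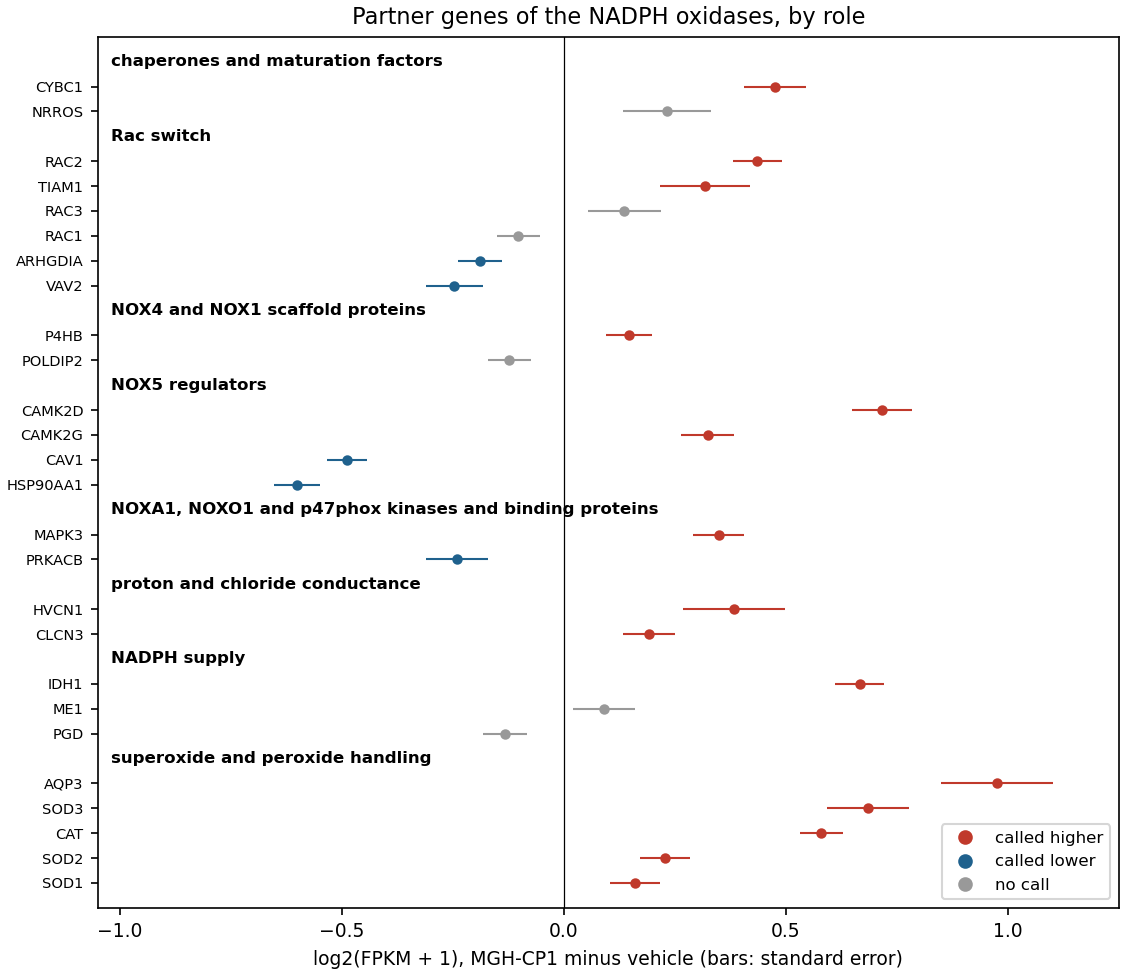
Difference in log2(FPKM + 1), MGH-CP1 minus vehicle (horizontal axis), for the 26 tested partner genes named in the text (vertical axis), grouped by role, with bars for the standard error and colors for the call at an adjusted p of 0.05. The called genes shown run from -0.60 for HSP90AA1 to 0.98 for AQP3. The 5 genes shown for superoxide and peroxide handling are those called higher of 6 tested, beside 27.1% of all genes.

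Of the cytosolic subunits of the phagocyte oxidase, NCF1 (p47phox), the counterpart of NOXO1, and NCF4 (p40phox) were almost absent. NCF1 had 0.0167 and 0.0236 FPKM in 1 library of each condition and 0 in the others; it shares near-identical sequence with its pseudogenes, so its counts are uncertain. NCF4 had at most 0.0677 FPKM. NOX3, the oxidase of the inner ear, had 0.0192 FPKM in vehicle replicate 1 and 0 elsewhere.

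Since CYBB, NCF1 and NCF4 belong to phagocytes, markers of these cells were read in the same libraries. Of 10 phagocyte markers, 3 had at least 1 FPKM in each vehicle control library and 4 in each MGH-CP1 library, and their summed level went from 5.79 and 5.88 FPKM to 9.93 and 10.9 FPKM. TYROBP, AIF1 and FCGR3A had 0 fragments in all libraries, and PTPRC (CD45), ITGAM and SPI1 had at most 0.0603 FPKM. The markers that carried the sum were ITGB2, CD14, CSF1R and LYZ, of which CD14 (log2 difference 0.59, adjusted p = 0.00715 from limma) and CSF1R (0.76, adjusted p = 6.30e-04 from limma) rose, ITGB2 did not pass the test (0.22, adjusted p = 0.132 from limma), and LYZ went from 0.180 and 0.256 FPKM to 1.20 and 1.08 FPKM. In bulk RNA a change in the number of cells that express a gene and a change in RNA per cell cannot be told apart. Of the 4 genes listed as expressed in this line, VIM had 259 to 281 FPKM and CD44 198 to 221 FPKM over the 4 libraries and did not pass the test. The other 2, KRT18 and EGFR, fell by 0.35 and 0.46 on the log2 scale to 86.8 and 34.9 FPKM in the lowest library (adjusted p = 9.26e-04 and 2.19e-04 from limma). Of the 3 listed as absent, ESR1 and PGR had at most 0.0243 FPKM, and CDH1 had 0.363 and 0.289 FPKM in the vehicle control libraries and 0.638 and 0.572 FPKM after MGH-CP1. The TEAD target genes CYR61, CTGF and ANKRD1 fell by 0.75, 0.66 and 0.66 on the log2 scale after MGH-CP1 (adjusted p from 3.29e-05 to 1.02e-04, limma).

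The factor that matures the CYBB and CYBA heterodimer, CYBC1 (listed as C17orf62), had 10.1 and 10.5 FPKM in the vehicle control libraries and rose to 15.4 and 13.96 FPKM (log2 difference 0.48, standard error 0.07, adjusted p = 8.76e-04 from limma). NRROS, which binds CYBB in the endoplasmic reticulum and lowers its level, had 3.69 and 3.76 FPKM in the vehicle control libraries and 4.14 and 4.99 FPKM after MGH-CP1 (adjusted p = 0.0836 from limma).

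All 3 Rac GTPases, which NOX1 and CYBB need, were expressed. RAC1 had the highest level of the 3, with 250.3 and 238 FPKM in the vehicle control libraries and 223 and 231 FPKM after MGH-CP1 (adjusted p = 0.111 from limma). RAC2, known from blood cells, rose from 59.4 and 63.9 FPKM to 86.0 and 81.5 FPKM (log2 difference 0.44, standard error 0.06, adjusted p = 4.48e-04 from limma). RAC3 had 7.24 and 7.01 FPKM in the vehicle control libraries and 7.39 and 8.51 FPKM after MGH-CP1 (adjusted p = 0.201 from limma). Of the 9 genes tested around the Rac switch, 2 were higher and 2 lower, which is 22.2% each and near the 27.1% and 23.8% of all genes. The exchange factor TIAM1 rose by 0.32 on the log2 scale and the exchange factor VAV2 and the inhibitor ARHGDIA fell by 0.25 and 0.19 (adjusted p = 0.0309, 0.0136 and 0.0141 from limma).

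Of the known regulators of NOX5, 2 were higher and 3 lower of 10 tested, which is 20% and 30% and near the 27.1% and 23.8% of all genes. The calcium-dependent kinase genes CAMK2D and CAMK2G rose. CAMK2D went from 12.9 and 11.8 FPKM to 21.5 and 20.3 FPKM (log2 difference 0.72, standard error 0.07, adjusted p = 1.13e-04 from limma), and CAMK2G from 12.1 and 11.8 FPKM to 15.1 and 15.4 FPKM (log2 difference 0.32, adjusted p = 0.00263 from limma). The chaperone gene HSP90AA1, whose protein stabilizes NOX5, fell from 574 and 539 FPKM to 360 and 372 FPKM (log2 difference -0.60, standard error 0.05, adjusted p = 7.65e-05 from limma). CAV1, which encodes the membrane protein caveolin-1, fell from 385 and 389 FPKM to 272 and 278 FPKM (log2 difference -0.49, adjusted p = 1.00e-04 from limma).

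Of the scaffold genes, P4HB, which encodes protein disulfide isomerase, was called higher (log2 difference 0.15, adjusted p = 0.0450 from limma), a call that did not survive quantile normalization, where its log2 difference was 0.03. POLDIP2, a partner of the NOX4 enzyme, was expressed at 58.5 to 65.4 FPKM in these cells without NOX4 fragments. Of the kinases and binding proteins that act on NOXA1, NOXO1 or p47phox, 1 rose and 2 fell of 9 tested. This is 11.1% and 22.2%, beside 27.1% and 23.8% of all genes, so neither share exceeds that of all genes. MAPK3 rose by 0.35 on the log2 scale (adjusted p = 0.00146 from limma), and PRKACB fell by 0.24 (adjusted p = 0.0210 from limma).

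Of the genes for the proton and chloride conductances that balance the charge moved by an oxidase, HVCN1 had only 1.08 and 1.06 FPKM in the vehicle control libraries and 1.65 and 1.74 FPKM after MGH-CP1 (log2 difference 0.38, adjusted p = 0.0240 from limma). It lost its call with any library left out. CLCN3 rose by 0.19 on the log2 scale (adjusted p = 0.0258 from limma). For the supply of NADPH, IDH1 rose from 29.9 and 30.4 FPKM to 50.3 and 46.6 FPKM (log2 difference 0.67, standard error 0.06, adjusted p = 7.04e-05 from limma). PGD and ME1, which also encode NADPH-forming enzymes, did not pass the test.

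Of the genes that handle superoxide and peroxide, 5 of 6 tested were higher and 0 lower, beside 27.1% and 23.8% of all genes, and the calls of SOD1 and SOD2 were lost when a library was left out. AQP3, a water channel that also lets hydrogen peroxide through, rose from 4.30 and 3.84 FPKM to 10.4 and 7.70 FPKM (log2 difference 0.98, standard error 0.13, adjusted p = 4.81e-04 from limma). SOD3, the secreted superoxide dismutase, rose from 17.2 and 14.2 FPKM to 24.3 and 27.2 FPKM (log2 difference 0.68, standard error 0.09, adjusted p = 6.10e-04 from limma). CAT, which encodes catalase, rose by 0.58 on the log2 scale, and SOD2 and SOD1, the mitochondrial and the cytosolic superoxide dismutase, rose by 0.23 and 0.16 (adjusted p = 7.65e-05, 0.0101 and 0.0456 from limma). The peroxidase genes that draw on hydrogen peroxide in phagocytes and secretions, MPO, EPX and LPO, had at most 0.0725 FPKM.

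The position of NOX5 and NOXA1 among their neighbors was compared because the 2 genes had the largest differences. On each side the 3 nearest genes that passed the filter were read, a choice made after the data were seen. Around NOX5 these were FEM1B, CORO2B and ANP32A before it and GLCE, PAQR5 and KIF23 after it, at gaps of 97.8 kb or more, with log2 differences from -1.10 for KIF23 to 0.31 for CORO2B. Around NOXA1 the log2 differences ran from -0.17 for NSMF to 0.69 for EXD3. EXD3, an exonuclease domain gene, lies on the opposite strand, with a gap of 88 bases between the regions in hg19. It rose from 4.85 and 5.47 FPKM to 9.66 and 8.23 FPKM (log2 difference 0.69, standard error 0.09, adjusted p = 6.41e-04 from limma) and kept its call with each library left out, at log2 differences from 0.58 to 0.79. In RefSeq (GRCh38.p14) the start windows of EXD3 and NOXA1 share 270 bases, and their start sites lie 231 bases apart. DUOX1 with DUOXA1 and DUOX2 with DUOXA2 are arranged in the same way, with windows that share 214 and 253 bases.

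**Figure D5:**
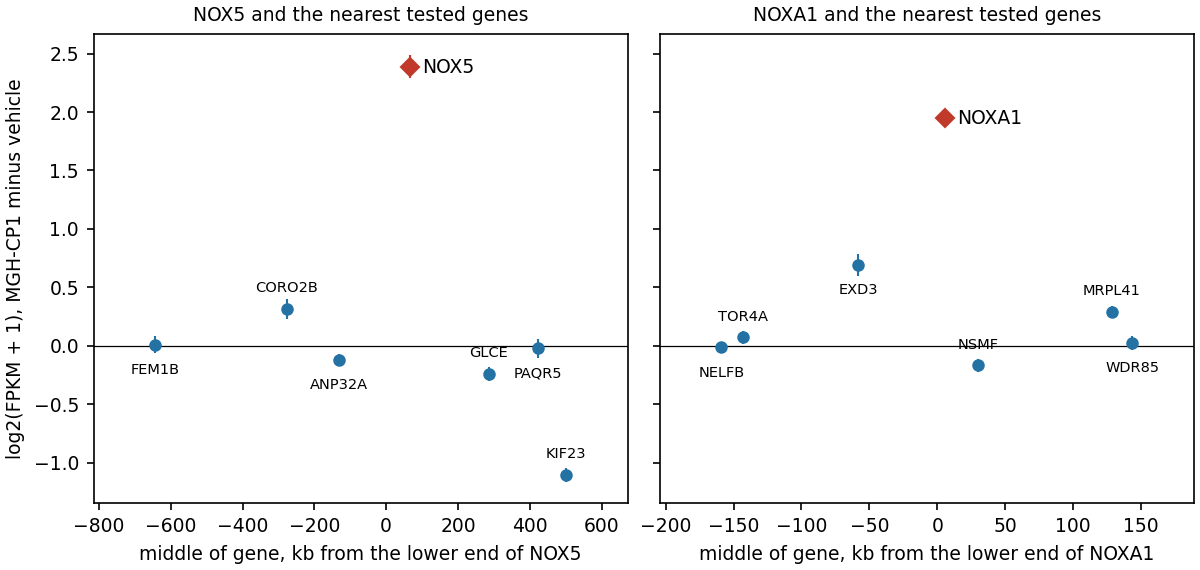
Difference in log2(FPKM + 1), MGH-CP1 minus vehicle (vertical axis), of NOX5 and NOXA1 (diamonds) and of the 3 nearest tested genes on each side (circles), against the distance in kb from the lower coordinate of the member (horizontal axis), with bars for the standard error. NOX5 at 2.39 and NOXA1 at 1.95 stand above every neighbor shown, of which EXD3 beside NOXA1 is the highest at 0.69. Both genes were chosen for their large differences, so their place above the neighbors follows from that choice.

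The genes most like NOX5 and NOXA1 were sought by the distance between log2(FPKM + 1) profiles over the 4 libraries, centered on each gene's mean. The 5 nearest to NOX5 were MT-CO2, MT-ND4, NEAT1, MT-ND6 and MT-ND4L, at distances from 0.214 to 0.296. The 5 nearest to NOXA1 were MT-ATP6, MT-ND1, MT-CYB, MT-ND5 and hsa-mir-6723, at distances from 0.118 to 0.209. Most of these are genes of the mitochondrial genome, whose share of fragments was 0.447% and 0.418% without MGH-CP1 and 1.57% and 1.53% after MGH-CP1. With 2 conditions and 4 libraries a short distance says little more than that the differences were of a like size, and the part of the mitochondrial share in the differences of NOX5 and NOXA1 was not tested beyond rescaling. With library totals taken without the mitochondrial genes, the log2 difference was 2.41 for NOX5, 1.97 for NOXA1 and 0.72 for CYBA.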

How the data were processed

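RNA of MDA-MB-231 cells was made into poly-A selected libraries, and 150 bp paired ends were read. The authors deposited FPKM for 48162 genes with symbol, listed length and coordinates; their processing notes name CASAVA 1.8, STAR and hg19, while the counting tool and the use of strand are not given in the sources used here. Columns were matched to samples by condition and replicate number, with DMSO read as vehicle control. FPKM multiplied by length was a whole multiple of a single step per library (within 0.01 of a fragment) for 100% of the values, which gave back the fragments: 25455533 and 25508824 for vehicle control, 17997221 and 17577930 for MGH-CP1. Replicates differed by more than sampling noise. Since the unit is FPKM, limma 3.58.1 in R 4.3.3 (lmFit, eBayes with a trend, two-sided) was used on log2(FPKM + 1) for the 12080 genes that averaged 1 FPKM or more, with Benjamini-Hochberg adjustment over all of them and a threshold of 0.05. Intervals of fragment ratios are exact (Clopper-Pearson, scipy 1.17.1), and a count of 0 was taken to allow 3 fragments; both cover counting error only. Transcript lengths came from GENCODE release 29. The members and lists were chosen with earlier results of these data known. Named are all members, the partners of fixed roles (cytosolic subunits, maturation factors and RAC genes), up to 2 called genes per role and direction with the largest change, genes that overlap a member, the 5 most similar genes and the TEAD targets that the study measured; others were chosen after their values were seen. Some partner genes are counted but not reported here by name. The fit was checked on simulated data first. Alternatives were another pseudocount and filter, other scalings, the replicate block, other variance models, voom on fragments and leaving out each library.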

Additional observations from a re-analysis of the deposited data

How the results depend on the processing

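The log2 difference of each member kept its direction in all 14 alternatives: 2.25 to 2.81 for NOX5, 1.88 to 2.13 for NOXA1 and 0.55 to 0.86 for CYBA, with the highest values of NOX5 and NOXA1 from voom on the recovered fragments. Without the filter on low values 10 partner genes were called higher and 4 lower (1844 lower among all genes), with 58 partners and 24878 genes tested; the cause was not tested. With median-ratio scaling 11 partners were lower. Per-gene variance, the kind of test the study used, called 0 partners either way after adjustment (9 genes higher and 4 lower in all). The study names no adjustment for its Student's t test. At an unadjusted p under 0.05, per-gene variance gave 13 partners higher and 7 lower, and 2584 genes higher and 2363 lower in all. The limma fits with shared variance called 10 to 19 partners higher and 4 to 11 lower. With each library left out in turn 13 to 14 partners were higher and 4 to 7 lower, the lowest without MGH-CP1 replicate 1 (2512 to 2991 and 2129 to 2549 among all genes). The replicate block gave 19 higher and 9 lower. The deviations of same-numbered libraries had a correlation of 0.0777 across genes. With 2 libraries a condition, this value cannot tell whether same-numbered libraries shared a culture or a preparation. Per the shortest protein-coding transcript, a setting chosen after the data were seen, NOXA1 stood at 0.743 times NOX5 in the vehicle control libraries and 0.460 times after MGH-CP1, the reverse of the order per listed length. Depth limits NOX1, CYBB, NOXO1, DUOX2 and NOX4, with 0 to 21 fragments in a library.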
